A study of Mus musculus with 12 samples.

Results

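Transsulfuration and glutathione synthesis were examined through 8 mouse genes: Cth, Cbs, Mat2a, Ahcy, Gclc, Gclm, Gss and Slc7a11. They are 8 of the 33219 features in the count table, found by matching the Ensembl identifiers of the table to gene symbols in GENCODE M21 (mm10). The set was chosen by pathway with earlier results of these data known, and Cth was chosen because it differed between genotypes in these same samples. The genotype difference of Cth is therefore given below as a description, without a p value. The gene lists used below were also chosen with earlier results known, so counts set beside those of all genes are a description.

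The samples were tumor cells of MC38, a mouse colon adenocarcinoma line that had been implanted subcutaneously in C57BL/6 mice. The cells carried either the wild-type Rac1 gene (WT) or the A159V mutation (A159V), which the study knocked into the endogenous gene with CRISPR-Cas9. The A159V cells descended from a single sorted cell, clone 9 unless the study specified otherwise, so the mutation and other properties of 1 clone cannot be told apart. The mice, 6 to 8 weeks old at purchase, received 100 µg of IgG isotype control or of anti-PD1, an antibody that blocks the T cell checkpoint receptor PD1, every 3 days from day 3. Tumors were taken on day 13 after implantation, and tumor cells were isolated with a kit before polyA-selected RNA sequencing. The 12 samples form 4 groups of 3 mice, named by genotype and treatment: WT IgG and A159V IgG, and WT anti-PD1 and A159V anti-PD1. Samples held 14053582 to 21949942 counts, so that 3 counts, the smallest amount taken as detectable, corresponded to 0.137 to 0.214 CPM, the count scaled to the size of the library.

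In the methionine cycle, Mat2a makes the methyl donor S-adenosylmethionine, and Ahcy splits the S-adenosylhomocysteine left after methylation into homocysteine and adenosine. Transsulfuration carries the sulfur of homocysteine to cysteine: Cbs, cystathionine beta-synthase, joins homocysteine to serine, and Cth, cystathionine gamma-lyase, cleaves the product to release cysteine. Cells also take up cystine from outside through xCT, encoded by Slc7a11, which pairs with the heavy chain encoded by Slc3a2. Cysteine then enters glutathione, the main thiol antioxidant of cells, by way of glutamate-cysteine ligase, with its catalytic subunit Gclc and modifier subunit Gclm, and glutathione synthetase, Gss. The transcription factors NRF2 (Nfe2l2) and ATF4 are known activators of several of these genes in stressed cells.

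RefSeq promoter windows of 250 bases before to 50 bases after the gene start (GRCm38.p6) matched 6 of the 8 genes, Cbs, Mat2a, Ahcy, Gclm, Gss and Slc7a11. Cth and Gclc had no entry. The windows were searched on both strands for TGATGNAA, the amino acid response element bound by ATF4, and for TGACNNNGC, the core of the antioxidant response element bound by NRF2. The 250 bases before the start are shown for the 2 genes with a match to either motif, 5′ to 3′ on the strand of the gene, with the matched letters in capitals.
Slc7a11 (chr3:50443614-50443863, minus strand): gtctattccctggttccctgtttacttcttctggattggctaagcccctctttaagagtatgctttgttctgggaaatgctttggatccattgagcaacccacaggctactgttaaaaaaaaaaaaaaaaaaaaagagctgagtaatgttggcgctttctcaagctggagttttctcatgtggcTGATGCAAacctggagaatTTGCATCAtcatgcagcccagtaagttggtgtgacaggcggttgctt
Gclm (chr3:122245307-122245556, plus strand): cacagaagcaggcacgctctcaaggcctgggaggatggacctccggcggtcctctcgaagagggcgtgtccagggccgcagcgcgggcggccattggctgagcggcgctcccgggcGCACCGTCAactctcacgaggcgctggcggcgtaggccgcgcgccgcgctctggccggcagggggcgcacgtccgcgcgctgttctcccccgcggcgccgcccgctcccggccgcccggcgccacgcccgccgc
The Slc7a11 window held TGATGNAA at 2 places, beginning 66 bases before the start on the strand of the gene and 47 bases before it on the opposite strand, and 3.40% of the 18039 promoters searched held at least 1 match. The Gclm window held TGACNNNGC once, 134 bases before the start on the opposite strand, a motif found in 13.3% of promoters. The 4 other windows had neither motif. The E box CACGTG lay in the Cbs window alone among the 6, against 8.09% of all promoters, and the GC box GGGCGG lay in those of Cbs, Mat2a, Ahcy, Gclm and Gss, against 46.8%. A match describes letters in the window and does not show that a factor binds there.

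Counted per kilobase of exon, the 8 genes spanned a wide range of levels in every group. In WT IgG the order was Ahcy (154 CPM per kilobase), Mat2a (60.9), Gclc (19.7), Gclm (17.2), Gss (7.77), Slc7a11 (4.30), Cth (0.232) and Cbs (0.0136). Gclc and Gclm were the only neighbours in this order whose 3 samples overlapped. In A159V IgG, Cth reached 3.86 CPM per kilobase and stayed in the next to last place, while Slc7a11 rose to 9.83 CPM per kilobase, and its samples overlapped those of Gss, which averaged 10.3. The lengths are the union of all annotated exons, which for Slc7a11 is 13922 bases, so levels of genes with long exons not used in these cells are understated.

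**Figure D1:**
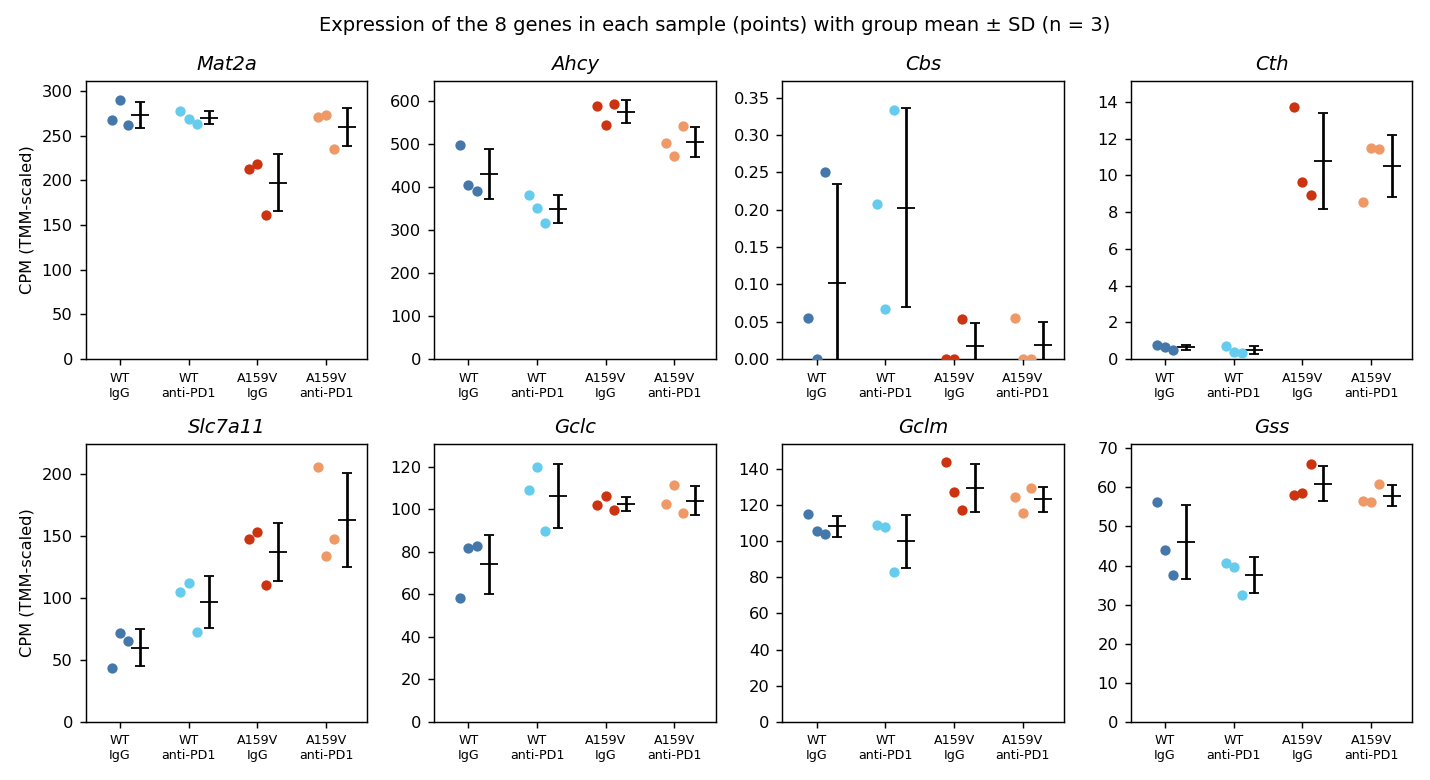
TMM-scaled CPM (vertical axes, from 0, a separate scale for each gene) of the 8 genes in each of the 12 samples, by group; points are samples and bars are the mean ± SD of 3 mice. Cth sits below 1 CPM in all 6 WT samples and between 8.55 and 13.7 CPM in all 6 A159V samples, Slc7a11 is above WT in A159V under both treatments, and Cbs lies near 0 throughout.

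Cth (chr3:157894248-157925077, minus strand) was close to silent in WT tumor cells and expressed at a low level in A159V cells. Its raw counts were 14, 11 and 10 in the WT IgG samples and 14, 6 and 6 in WT anti-PD1. The A159V samples had 260, 201 and 168 counts under IgG and 157, 216 and 206 under anti-PD1. Every A159V sample had at least 10 times the counts of any WT sample. The fitted log2 fold change between genotypes was 4.05 (standard error, SE, 0.30; 95% confidence interval 3.41 to 4.70) under IgG and 4.39 (0.31; 3.72 to 5.06) under anti-PD1. Among the 14340 genes tested, Cth had the 6th highest and the 5th highest log2 fold change in these comparisons. By size in either direction it ranked 97 and 117. These ranks describe the value by which Cth was chosen. Over all refits, including those without 1 of the samples, the value stayed between 3.84 and 4.14 under IgG and between 4.17 and 4.82 under anti-PD1.

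Cth did not change detectably with anti-PD1 in either genotype. The log2 fold change from IgG to anti-PD1 was -0.37 in WT (95% confidence interval -1.19 to 0.44; adjusted p = 0.535, edgeR quasi-likelihood test with Benjamini-Hochberg adjustment). In A159V it was -0.037 (-0.545 to 0.470; adjusted p = 1.00). The WT samples held 6 to 14 counts each, and that first interval leaves room for a change of any size within it. The smallest change that could be detected was not tested. The interaction of genotype and treatment was 0.34 (SE 0.44, adjusted p = 0.688).

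Of 18 annotated genes that start within 500 kb of the start of Cth, 7 were in the table and 5 had enough counts to be tested, and none of the 5 was called in either genotype comparison. To be called, a gene needed a log2 fold change beyond 0.3 in either direction together with an adjusted p below 0.05. Lrrc40, which starts 112 kb away, had the values nearest to a call, 0.39 under IgG and 0.39 under anti-PD1 (95% confidence intervals 0.0027 to 0.780 and 0.0036 to 0.782). Ankrd13c, 22.2 kb away, had a log2 fold change of 0.37 under IgG and -0.056 under anti-PD1. Zranb2 gave -0.11 and 0.32, the splicing factor gene Srsf11 gave -0.13 and -0.16, and the microRNA gene Mir186, with 0 to 24 counts, gave -0.99 and -1.23. The antisense gene 1810013D15Rik, whose start lies 0.143 kb from that of Cth on the other strand, was too low to be tested. Its counts summed to 0 in WT IgG and 2 in A159V IgG, and to 1 in WT anti-PD1 and 8 in A159V anti-PD1, of which 6 were in 1 sample, so the few reads lay in the same direction as those of Cth.

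**Figure D2:**
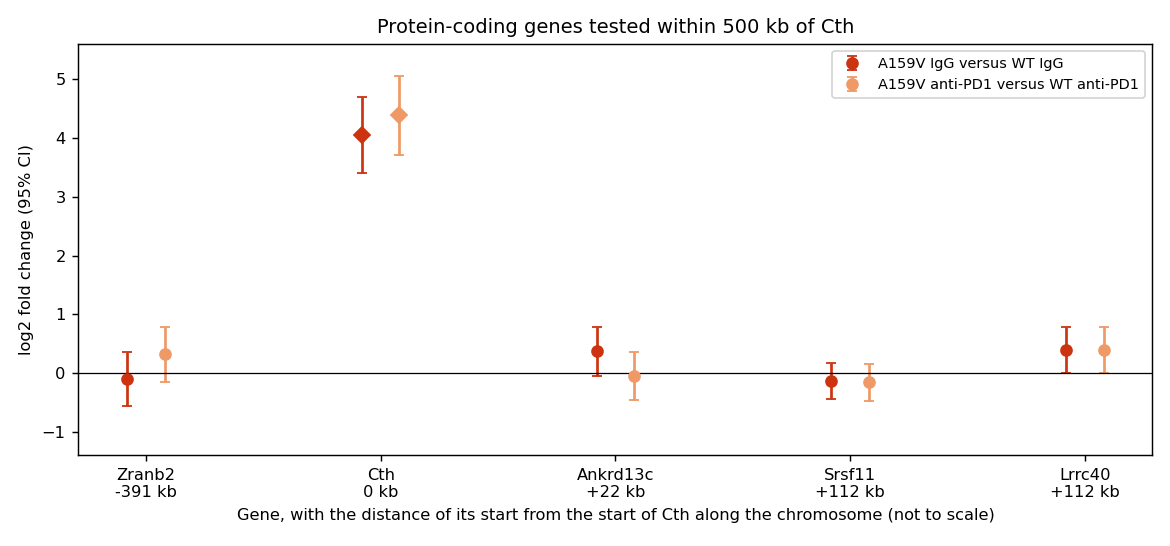
Fitted log2 fold change (vertical axis, bars are 95% confidence intervals) of A159V against WT for Cth and the 4 protein-coding genes tested within 500 kb, in the order of their starts along the chromosome. Cth stands at 4.05 and 4.39, and the neighbours lie between -0.16 and 0.39.

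Cbs (chr17:31608894-31637238, minus strand), the enzyme that makes the substrate of Cth, was barely detected in any group. The WT samples held 1, 0 and 5 counts under IgG and 4, 1 and 6 under anti-PD1, and the A159V samples held 0, 0 and 1 under IgG and 1, 0 and 0 under anti-PD1. It did not pass the filter on low counts and was the 1 of the 8 genes that was not tested. Summed over 3 samples, A159V held 1 count against 6 in WT under IgG, a ratio at equal depth of 0.150 (exact 95% interval 0.00326 to 1.23), and 1 against 11 under anti-PD1, a ratio of 0.0803 (0.00187 to 0.553). These intervals cover counting error only and not the spread between mice.

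Slc7a11 (chr3:49892526-50443614, minus strand) rose in A159V under both treatments. Its CPM was 43.4, 71.4 and 64.8 in WT IgG and 148, 153 and 110 in A159V IgG, without overlap. The log2 fold change was 1.19 (SE 0.23; 95% confidence interval 0.70 to 1.69), a 2.29-fold difference, with an adjusted p of 0.0029 in edgeR's quasi-likelihood test. It remained called in all 17 alternatives, at log2 fold changes of 0.94 to 1.40. Among them, 1 was the main fit without the limit on the fold change, which could not lose a call. Under anti-PD1 its CPM was 105, 112 and 72.4 in WT and 205, 134 and 148 in A159V, again without overlap. That log2 fold change was 0.75 (SE 0.23, adjusted p = 0.0327). The call under anti-PD1 was lost without WT anti-PD1 replicate 1 (adjusted p = 0.0615), WT anti-PD1 replicate 3 (0.148), A159V anti-PD1 replicate 1 (0.132) or A159V anti-PD1 replicate 3 (0.0622), and with at least 10 counts required in every sample (0.0566). With a score of leukocyte genes in the model it was lost at a larger value, 1.37 (0.188).

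Slc3a2, the partner chain of xCT, was near the threshold, with a log2 fold change of 0.34 (adjusted p = 0.0492) under IgG and 0.36 (0.0477) under anti-PD1. Both passed, but only 2 of 16 refits called it under IgG and 3 of 16 under anti-PD1. Within a sample, the level of Slc7a11 per kilobase was 0.0338 ± 0.010 (SD, n = 3) of that of Slc3a2 in WT IgG and 0.0602 ± 0.0119 in A159V IgG, and under anti-PD1 it was 0.0589 ± 0.0105 in WT and 0.0782 ± 0.0218 in A159V. The log2 of this ratio was higher by 0.86 in A159V IgG than in WT IgG, without overlap. An exact two-sided permutation test gave p = 0.1, the smallest that 3 against 3 samples allow, and 0.15 after adjustment over the 12 ratio comparisons made.

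Mat2a (chr6:72432799-72439558, minus strand) fell in A159V under IgG and was not called under anti-PD1. Its CPM was 268, 290 and 262 in WT IgG against 213, 219 and 162 in A159V IgG, and the fitted difference was -0.47 on the log2 scale (SE 0.13, adjusted p = 0.0213). Every A159V IgG sample lay below every WT IgG sample. The call held without any 1 sample, and was lost with only the IgG groups in the fit, at -0.55 (adjusted p = 0.0791), and with the leukocyte score, at -0.42 (0.106). Under anti-PD1 the 3 WT samples were at 278, 269 and 264 CPM and the A159V samples at 271, 273 and 235, and the log2 fold change was -0.057 (95% confidence interval -0.35 to 0.23, adjusted p = 0.793). The treatment responses of the genotypes differed by 0.41 on the log2 scale, which did not pass the test (adjusted p = 0.284).

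Ahcy (chr2:155059310-155074497, minus strand), the most abundant of the 8 transcripts per kilobase, was higher in A159V. Its CPM was 497, 405 and 390 in WT IgG and 588, 544 and 592 in A159V IgG, and the fitted log2 difference was 0.42 (SE 0.13, adjusted p = 0.0346). This call was lost without WT IgG replicate 2 (adjusted p = 0.192), WT IgG replicate 4 (0.0721), A159V IgG replicate 1 (0.0899), A159V IgG replicate 2 (0.061) or A159V IgG replicate 5 (0.098). It was also lost under RLE (0.0867) or upper-quartile (0.174) scaling, with no filter (0.127), with at least 10 counts in every sample (0.111), with only the IgG groups (0.289), with the replicate block (0.0875) and, at a larger value of 0.51, with the leukocyte score (0.0584). Under anti-PD1 the values were 381, 350 and 316 CPM in WT and 501, 473 and 542 CPM in A159V. Here the log2 fold change was 0.53 (SE 0.13, adjusted p = 0.0133), and the call was lost without WT anti-PD1 replicate 3 (0.07), without A159V anti-PD1 replicate 3 (0.0627) and, at a larger value of 0.78, with the leukocyte score (0.209). The groups did not overlap in either comparison.

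The ratio of Ahcy to Mat2a per kilobase separated the genotypes under both treatments. It was 2.53 ± 0.39 (SD, n = 3) in WT IgG and 4.75 ± 0.98 in A159V IgG, and 2.06 ± 0.14 in WT anti-PD1 and 3.14 ± 0.48 in A159V anti-PD1. The log2 differences were 0.90 and 0.60, without overlap, each with the smallest exact two-sided permutation p of 0.1 (0.15 adjusted). The ratio was also lower after anti-PD1 than after IgG in both genotypes, by 0.28 in WT and by 0.59 in A159V on the log2 scale, with the same p. A ratio within a sample does not depend on the scaling between samples.

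Of the 3 glutathione synthesis genes, Gclc (chr9:77754535-77794485, plus strand) was called under IgG alone and Gss (chr2:155563181-155592810, minus strand) under anti-PD1 alone, and whether the 2 comparisons differ is given by the interaction test below. The Gclc samples were at 58.2, 81.7 and 82.8 CPM in WT IgG and at 102, 106 and 99.7 in A159V IgG. That log2 fold change was 0.47 (SE 0.15, adjusted p = 0.0359). WT IgG replicate 1 was the lowest sample, and without it the value was 0.26 (adjusted p = 0.154). The call was also lost without WT IgG replicate 2 (0.0786), A159V IgG replicate 1 (0.0785), A159V IgG replicate 2 (0.0971) or A159V IgG replicate 5 (0.0709), under RLE (0.0643) or upper-quartile (0.112) scaling, with no filter (0.0929), with at least 10 counts in every sample (0.104), with only the IgG groups (0.19) and, at 0.52, with the leukocyte score (0.0811). Under anti-PD1, Gclc was at 109, 120 and 89.9 CPM in WT and 103, 112 and 98.1 CPM in A159V, with overlapping groups and a log2 fold change of -0.028 (95% confidence interval -0.35 to 0.30, adjusted p = 0.911).

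Gss was at 56.3, 44.0 and 37.6 CPM in WT IgG and 58.2, 58.5 and 66.1 in A159V IgG, and the log2 difference of 0.41 did not pass the test (SE 0.15, adjusted p = 0.0636). WT IgG replicate 1 was the highest WT sample, and without it the value was 0.52 and passed (adjusted p = 0.0188). Under anti-PD1, Gss rose from 40.7, 39.6 and 32.4 CPM in WT to 56.4, 56.3 and 60.9 CPM in A159V. The log2 fold change was 0.62 (SE 0.15, adjusted p = 0.0126). This call was lost without WT anti-PD1 replicate 3 (0.0697), without A159V anti-PD1 replicate 3 (0.0526) and, at a larger value of 0.95, with the leukocyte score (0.19). The gene Acss2 overlaps Gss over 22544 bases on the opposite strand and had 360 to 660 counts per sample, and the strand setting of the counting was not stated, so reads of the 2 genes may not be fully told apart.

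Gclm (chr3:122245557-122270732, plus strand) gave no call. It was at 115, 106 and 104 CPM in WT IgG and at 144, 127 and 117 in A159V IgG, without overlap, and its log2 fold change of 0.26 (95% confidence interval -0.026 to 0.54) had an adjusted p of 0.159. Under anti-PD1 the WT samples were at 109, 108 and 82.8 CPM and the A159V samples at 125, 116 and 129 CPM, with a log2 fold change of 0.30 (0.018 to 0.59) and an adjusted p of 0.117. The noncoding gene Gm17494 overlaps Gclm over 14775 bases on the opposite strand with 2299 to 6613 counts per sample. It had log2 fold changes of -0.55 (adjusted p = 0.0662) and 0.43 (0.16), so values of Gclm are uncertain where reads could be shared.

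Over the 7 genes tested, 5 were called under IgG, Cth, Slc7a11, Ahcy and Gclc higher and Mat2a lower, where 28% of all 14340 genes were called (15.6% higher and 12.4% lower). Under anti-PD1, Cth, Slc7a11, Ahcy and Gss were called higher and none lower, against 21.4% of all genes (11.2% higher and 10.2% lower). The groups did not overlap for all 7 genes under IgG, against 35.8% of all genes, and for 5 of 7 under anti-PD1, against 56.1%. Because Cth was chosen by these contrasts, its call and its lack of overlap add nothing to these counts. The other genes were also chosen with earlier results of these data known, so the counts beside all genes are a description. The medians that follow also include Cth. The median log2 fold change of the 7 genes was 0.42 under IgG and 0.53 under anti-PD1, beside 0.018 and 0.064 over all genes. With upper-quartile scaling the median of all genes under IgG moved to -0.12, and relative to that median the value of Slc7a11 was 1.17, of Ahcy 0.40 and of Mat2a -0.49, against 1.18, 0.40 and -0.49 with the scaling used here.

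**Figure D3:**
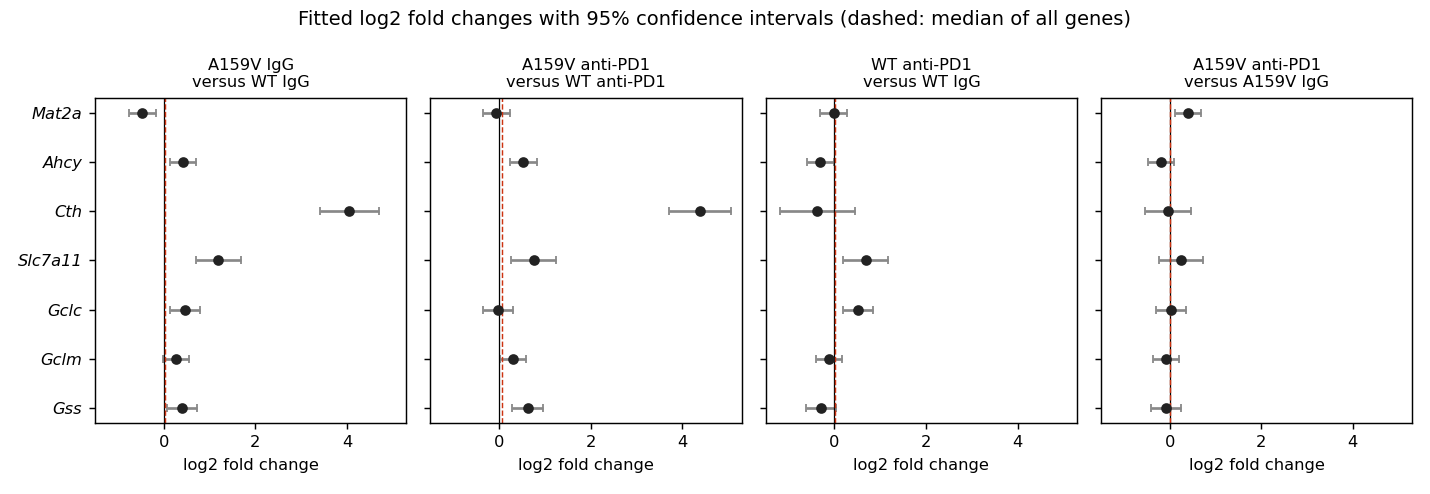
Fitted log2 fold changes (horizontal axes, points) with 95% confidence intervals for the 7 genes tested, in the 2 genotype and the 2 treatment comparisons; the dashed line is the median of all 14340 genes. Cth lies beyond 4 in both genotype comparisons and near 0 in both treatment comparisons, and the other genes lie between -0.47 and 1.19.

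Treatment with anti-PD1 gave no call among these genes. In WT, 90 of all genes (0.628%) were called, and none of the 7. The nearest were Gclc, with a log2 fold change of 0.52 (SE 0.15, adjusted p = 0.0834), and Slc7a11, with 0.69 (SE 0.23, adjusted p = 0.102). The WT anti-PD1 samples of both genes lay above all WT IgG samples. Ahcy lay below in all 3, with a log2 fold change of -0.30 (adjusted p = 0.165). Without WT IgG replicate 4 Gclc passed, at 0.60 (adjusted p = 0.0231), and without WT IgG replicate 1 it was 0.36 (0.229). DESeq2 called Gclc (adjusted p = 0.027) and Slc7a11 (0.0497) in this comparison. With the leukocyte score in the model Slc7a11 was at 0.20 (0.828). The score itself was at most 0.17 in WT IgG and at least 0.34 in WT anti-PD1, without overlap. It was at most -0.11 in A159V anti-PD1, so it also separated the genotypes under anti-PD1. A fit with the score cannot fully tell it apart from genotype there.

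In A159V, 0 of the 14340 genes (0%) passed edgeR's test for anti-PD1, with 521 genes at an unadjusted p under 0.05. Mat2a was the only 1 of the 7 among them, at a log2 fold change of 0.39 (SE 0.13, adjusted p = 1.00), and its 3 anti-PD1 samples lay above the 3 IgG samples. Whether anti-PD1 acted unlike in WT and A159V was tested as an interaction, which was called for 1 gene in all (0.00697%), not one of this set. For Gclc the interaction was -0.50 (SE 0.21, adjusted p = 0.266), for Slc7a11 -0.44 (adjusted p = 0.457) and for Gss 0.22 (0.591). At an unadjusted p under 0.05 stood 3 of the 7 genes in WT, where 27.5% of all genes did, and 1 of 7 in A159V, where 3.63% did.

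The subunit ratio of glutamate-cysteine ligase followed Gclc. Per kilobase, Gclc stood at 1.16 ± 0.27 (SD, n = 3) of Gclm in WT IgG and 1.33 ± 0.13 in A159V IgG, and under anti-PD1 at 1.78 ± 0.10 in WT and 1.42 ± 0.17 in A159V. The WT anti-PD1 samples lay above both WT IgG and A159V anti-PD1 without overlap, by 0.65 and 0.33 on the log2 scale (exact permutation p = 0.1 in each, two-sided, 0.15 adjusted). The A159V IgG samples overlapped with WT IgG (exact permutation p = 0.5). The ratio carries the uncertainty of Gclm from Gm17494, which was at 255 ± 95 CPM in WT IgG and 147 ± 6.8 CPM in WT anti-PD1.

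The rest of the pathway was described from 5 lists of 86 further genes, of which 76 were tested. Under IgG 20 (26.3%) were called higher and 8 (10.5%) lower in A159V, against 15.6% and 12.4% of all genes. Under anti-PD1 20 (26.3%) were called higher and 6 (7.89%) lower, against 11.2% and 10.2%. The split depended on the scaling: under IgG it was 14 higher and 10 lower with RLE and 13 and 13 with upper-quartile scaling, and under anti-PD1 16 and 7, and 13 and 7. Their medians on the log2 scale were 0.14 and 0.19, beside 0.018 and 0.064 for all genes. None was called for anti-PD1 in either genotype. With only the IgG groups in the fit 10 of these genes were called under IgG, and with the leukocyte score 4 under anti-PD1. Without WT anti-PD1 replicate 3 or A159V anti-PD1 replicate 3, 17 were called under anti-PD1.

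Of the methionine cycle and its folate link, 6 of 18 genes beside Mat2a and Ahcy (33.3%) were called higher under IgG and 7 of 18 (38.9%) under anti-PD1, against 15.6% and 11.2% of all genes, and none lower. With RLE scaling 4 were higher and 2 lower under IgG, and with upper-quartile scaling 3 and 2. Calls over all genes also moved from higher to lower with these scalings, as given above. Mthfd2, a mitochondrial folate enzyme, rose by log2 fold changes of 0.42 (adjusted p = 0.0367) and 0.87 (0.00103), the first called in 4 of 16 refits. Shmt1, the cytosolic serine hydroxymethyltransferase, rose by 0.58 (0.00397) and 0.59 (0.00427). Methionine synthase, Mtr, rose by 0.78 under IgG (0.0115). The other subunit of the Mat2a enzyme, Mat2b, was at 0.22 (0.295) and 0.21 (0.369).

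Beside Cth and Cbs, 3 of 13 genes of cysteine breakdown and sulfide metabolism were called higher (23.1%) and 1 lower (7.69%) in both comparisons, beside 15.6% and 12.4% of all genes under IgG and 11.2% and 10.2% under anti-PD1. Counts this small are not set apart from those shares. Got1 and Got2, the cytosolic and mitochondrial aspartate aminotransferases, rose by 0.98 and 0.79 under IgG and by 0.78 and 0.62 under anti-PD1, and Kyat3 rose by 0.72 and 0.88. Csad, which decarboxylates cysteine sulfinate on the way to taurine, fell by 1.13 and 1.37 on the log2 scale (adjusted p = 0.00399 and 0.00144). Mpst, which releases sulfide from mercaptopyruvate, was at -0.10 and 0.19, neither called.

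In glutathione synthesis and turnover, 1 of the 12 genes beside Gclc, Gclm and Gss was called higher (8.33%) and 2 lower (16.7%) under IgG, and 2 higher and 2 lower under anti-PD1 (16.7% each), close to the shares of all genes given above. The lower genes, the same in both comparisons, encode enzymes of the cell surface. Ggt5, a gamma-glutamyltransferase, fell by 3.65 and 4.75 (adjusted p = 0.000328 and 5.21e-05), and the membrane dipeptidase gene Dpep2 fell by 1.72 and 1.80 (0.00702 and 0.00561). Lap3, a leucine aminopeptidase, rose by 0.46, a call held in 7 of 16 refits, and 0.64. Chac1, which degrades glutathione in the cytosol, was at 0.54 (0.0935) under IgG and rose by 0.79 (0.0279) under anti-PD1, called in 9 of 16 refits.

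Glutathione use and reduction had 25 genes tested. Under IgG 7 were higher (28%) and 5 lower (20%), beside 15.6% and 12.4% of all genes. Under anti-PD1 6 were higher (24%) and 2 lower (8%), beside 11.2% and 10.2%. With RLE scaling 5 were higher and 5 lower under IgG and 4 and 2 under anti-PD1. With upper-quartile scaling the counts were 5 and 6, and 4 and 2. Gsr, glutathione reductase, rose by 0.85 and 0.99 (adjusted p = 0.00152 and 0.000618), and the transferase gene Gsta4 rose by 1.30 and 1.71 (0.000392 and 8.22e-05). Gpx8, a peroxidase of the endoplasmic reticulum, fell by 1.21 and 0.92. The secreted peroxidase gene Gpx3 had a log2 fold change of -4.39 under IgG (SE 1.23, adjusted p = 0.019) that rested on WT IgG replicate 1. Its CPM ran from 0.367 to 26.8 in WT IgG and from 0.264 to 0.624 in A159V IgG, so the groups overlapped, and without that sample the value was -2.01 (0.153). Under anti-PD1 Gpx3 was at -1.31 (0.41). Gpx4, which reduces lipid peroxides, was at -0.59 (0.0809) and -0.013 (0.976). Of the 8 transport genes tested beside Slc7a11, 3 were called higher (37.5%) under IgG, and 2 higher (25%) and 1 lower (12.5%) under anti-PD1. Slc3a2, near the threshold as given above, was among the higher genes in both. With RLE scaling 2 were higher and 0 lower under IgG and 1 and 1 under anti-PD1. With upper-quartile scaling the transport counts were 2 and 1, and 0 and 1. The neutral amino acid transporter gene Slc7a5, whose product shares the Slc3a2 chain, rose by 0.72 and by 0.51, the latter called in 8 of 16 refits, and Slc38a2 fell by 0.71 under anti-PD1.

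**Figure D4:**
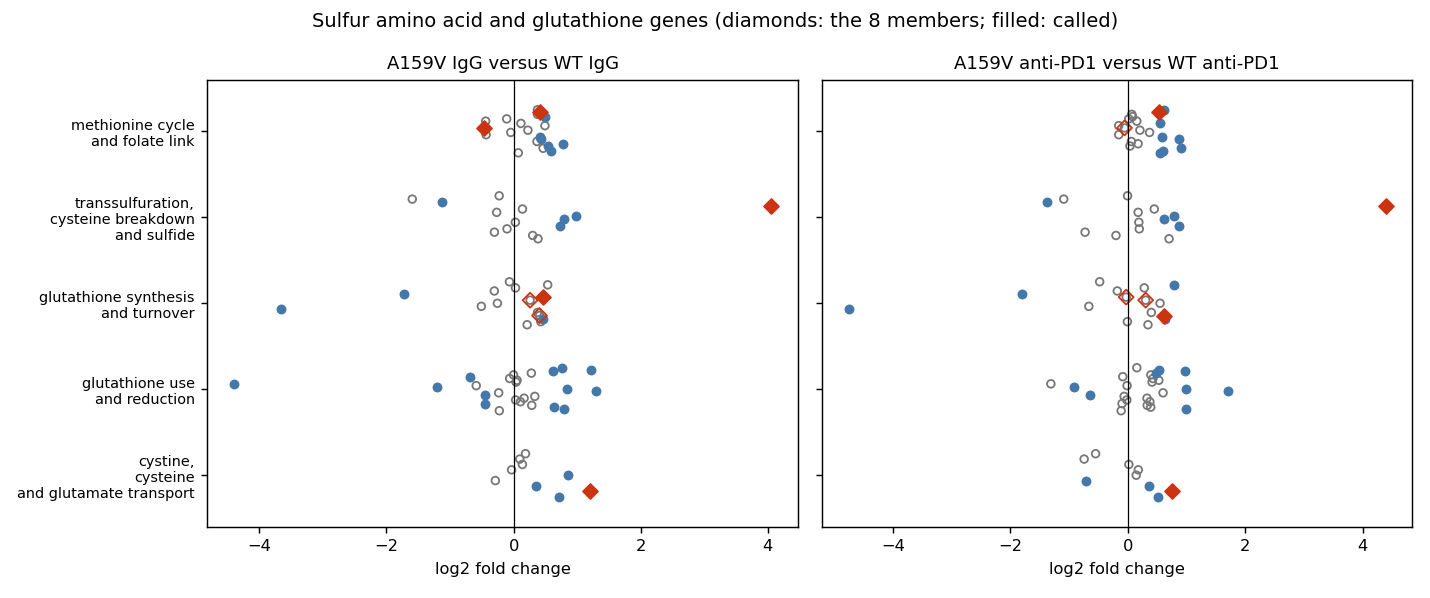
Log2 fold change (horizontal axes) of A159V against WT for every tested gene of the 5 metabolic lists under IgG (left) and anti-PD1 (right); circles are list genes, diamonds are the members tested, and filled symbols are called. Cth stands alone beyond 4, Ggt5 lies below -3 in both panels, and called genes of the methionine and folate list lie above 0 except Mat2a.

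Targets of NRF2 and of ATF4 were counted from 2 further lists. Of 25 NRF2 regulators and targets outside the 8 genes, 9 were called higher (36%) and 2 lower (8%) under IgG and 6 higher (24%) and 4 lower (16%) under anti-PD1, beside 15.6%, 12.4%, 11.2% and 10.2% of all genes. Their medians were 0.22 and 0.29, beside 0.018 and 0.064 for all genes. With RLE the calls were 8 higher and 2 lower under IgG and 4 and 4 under anti-PD1. With upper-quartile scaling they were 8 and 3, and 4 and 4. The calls over all genes under these scalings are given above. The list holds regulators, an inhibitor of NRF2 among them, as well as targets, so a direction has no single meaning. Nfe2l2 itself rose by 0.61 under IgG (SE 0.13, adjusted p = 0.00518) and was at 0.32 under anti-PD1 (0.0982), and its inhibitor Keap1 was at -0.055 (0.755) and 0.17 (0.33). Txnrd1, thioredoxin reductase, rose by 0.79 under IgG, and Pgd, a pentose phosphate enzyme, rose by 0.77 and 0.76. Nqo1, a quinone reductase widely used as an NRF2 target, went the other way and fell by 0.56 and 1.18 (adjusted p = 0.0184 and 0.000329). The first of these was called in 12 of 16 refits. The epoxide hydrolase gene Ephx1 fell by 1.56, called in 10 of 15 refits, and 3.22. It had 15 to 43 counts in WT IgG samples and 6 to 18 in A159V IgG. Of 31 ATF4 regulators and targets outside the 8 genes, 16 were called higher (51.6%) and 3 lower (9.68%) under IgG and 15 higher (48.4%) and 2 lower (6.45%) under anti-PD1, with medians of 0.41 and 0.29. Under IgG these became 9 higher and 4 lower with RLE and 6 and 4 with upper-quartile scaling. Under anti-PD1 they became 14 and 2, and 10 and 2. The calls over all genes with the same scalings are those given above. The transcript of Atf4, a factor largely set by translation, was at -0.23 (0.296) and 0.29 (0.2). Psph, of serine synthesis, rose by 0.49, called in 4 of 16 refits, and 0.81, and Stc2 rose by 0.56 and 0.80. Of the stress genes, Nupr1 fell by 0.80 and 0.68, the latter called in 12 of 16 refits. Ddit3 fell by 0.85 under IgG and was at -0.44 (0.146) under anti-PD1, not called.

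The genes whose pattern over the 12 samples was nearest to that of Cth were Sprr2a2, Syt7, Mpzl2, Hecw2, Prl8a9 and Sprr2a1. Nearness was the mean absolute difference between log2 CPM values, each gene centred on its own mean, over 14339 other genes. It ran from 0.451 for Sprr2a2 to 0.607 for Sprr2a1, and the next gene stood at 0.613, so the end of this group is not set off from the genes beyond it. All 6 were low in WT and higher in A159V, which follows from their choice by nearness to Cth and is no separate result. Syt7, a synaptotagmin, averaged 0.400 CPM in WT IgG and 5.77 in A159V IgG, and Hecw2, a ubiquitin ligase gene, averaged 0.304 and 4.01 CPM. Mpzl2 was at 0.018 and 2.83 CPM, the first of these under the 3-count floor. Sprr2a1 and Sprr2a2 are near-identical copies that overlap on chromosome 3, so their counts may share reads. By Euclidean distance 5 of the 6 remained among the nearest 6, and with a prior count of 0.5 in place of 2 on the log scale 4 did. None of the 6 belongs to the pathway lists.

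**Figure D5:**
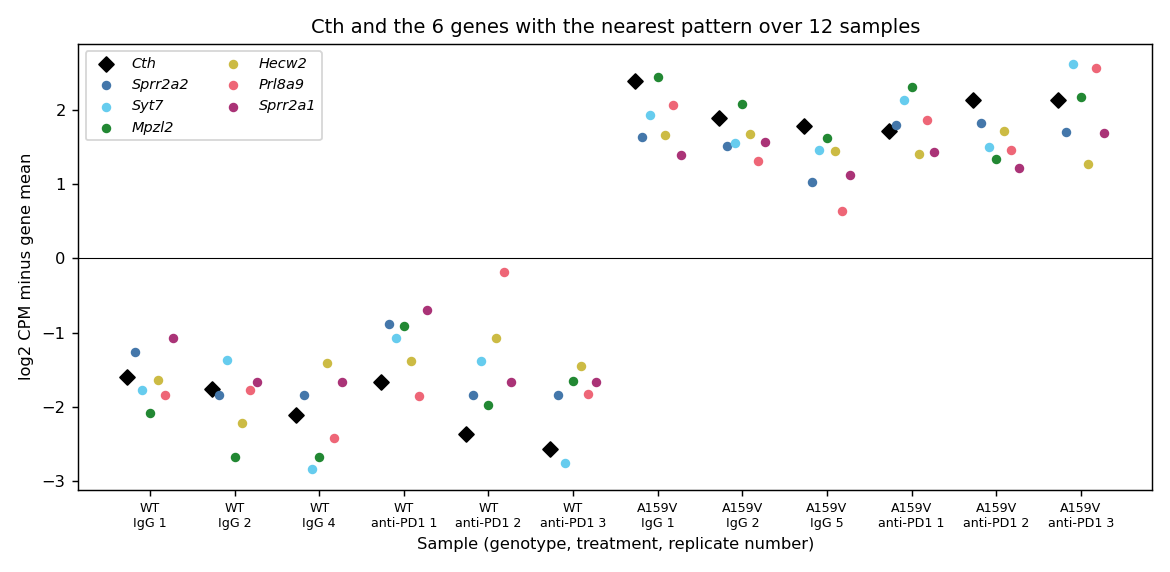
Log2 CPM minus the mean of each gene (vertical axis) in the 12 samples for Cth (black diamonds) and the 6 genes nearest to it. All 7 genes lie below 0 in the 6 WT samples and above 0 in the 6 A159V samples, a pattern set by how the genes were chosen.

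Rac1 was not called in either genotype comparison, with log2 fold changes of -0.11 (adjusted p = 0.624) under IgG and -0.18 (0.404) under anti-PD1, and its count does not show the mutation. Markers of other cell types moved with the genotype. The summed CPM of 14 leukocyte markers, 9 of them tested, was 87.4 to 230 in WT IgG and 35.1 to 39.2 in A159V IgG, and under anti-PD1 37.5 to 114 in WT and 26.3 to 57.5 in A159V. Of these markers 1 was called higher and 4 lower in A159V under IgG, and 0 higher and 4 lower under anti-PD1. From WT IgG to WT anti-PD1 the sum, to which Cd74 gave the most, went against most single markers, since 7 of the 9 had log2 fold changes above 0 and their median was 1.29. In that comparison 3 were called higher and 0 lower, Cd8a by 4.53, Nkg7 by 2.58 and Itgam by 2.44. Cd4 and Adgre1 had 3 counts or fewer in every WT anti-PD1 and WT IgG sample, and Adgre1, Cd3e, Cd8a, Nkg7 and Itgam in every A159V sample. The 7 fibroblast markers summed to 285 to 699, 167 to 243, 401 to 685 and 193 to 239 CPM in the same order of groups, with 5 lower under IgG, and 1 higher and 3 lower under anti-PD1. The 5 endothelial markers, 2 of them tested, summed to 5.15 to 15.1 CPM over all samples, with 0 calls under IgG and 2 lower under anti-PD1. In bulk samples fewer cells of a type and less RNA per cell cannot be told apart, and the part of these cells in the differences of the 8 genes was not tested beyond the leukocyte score given above. Of 8 epithelial and carcinoma markers 2 were tested, their sum was 1.53 to 5.90 CPM, and Epcam, Krt20 and Cdx2 had 3 counts or fewer in every sample, so the labelled adenocarcinoma origin is not visible in these markers.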

How the data were processed

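The authors aligned paired 100-base reads to mm10 with STAR and counted them per gene with summarizeOverlaps, as the methods of the study state, and deposited the raw counts of all 12 samples without normalization. The counting mode and strand setting were not given in the sources used here. Symbols, positions and exon lengths came from GENCODE M21, and 32064 of 33219 features matched.

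Groups came from the sample labels. Counts were fitted in edgeR 4.0.16 (R 4.3.3) by the quasi-likelihood test, with TMM scaling and filterByExpr over the 4 groups, which left 14340 genes, with Benjamini-Hochberg adjustment over all of them. CPM values are TMM-scaled. Standard errors and 95% confidence intervals came from the same fit. Levels between genes were compared per kilobase of exon. Within-sample ratios were tested by exact permutation, two-sided. Alternatives were RLE and upper-quartile scaling, other filters, DESeq2 1.42.0, limma-voom 3.58.1, only the groups compared, counts thinned to the smallest total, a replicate block, a leukocyte score in the model, and leaving out each sample. A further alternative was the main fit without the limit on the fold change. The leukocyte score was the mean over the 9 leukocyte markers tested of their log2 CPM, each centred and divided by its SD. The steps were tested on simulated counts.

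The 8 genes and all lists were chosen with earlier results of these data known. Genes were named by rule: the 8 genes, Rac1, Nfe2l2, Keap1 and Atf4, called list genes among the 6 with the largest change in a list and comparison, the 6 genes nearest to Cth, and genes near Cth or overlapping any of the 8. Mat2b, Mpst, Chac1 under IgG, Gpx3 and Ddit3 under anti-PD1, and Gpx4 were added after their values were seen. Replicates were separate mice. Replicate pairs of a group differed by more than counting noise, and most in the IgG groups. By chi-square of the counts per degree of freedom, pairs with WT IgG replicate 1 were at 54.9 and 128, and the other WT IgG pair at 26.0. Pairs with A159V IgG replicate 5 were at 80.7 and 77.9, and the other A159V IgG pair at 12.1. Pairs of the anti-PD1 groups ran from 6.45 to 17.8. Intervals and floors on single counts cover counting error only and not the spread between mice, and the reads carry no molecular identifiers. The same numbers in different groups marked different mice, and the deviations of same-numbered samples correlated between -0.18 and 0.20, so the main fit had no replicate block.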

Additional observations from a re-analysis of the deposited data

How the results depend on the processing

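All of these refits were planned, and those of the 7 genes in 5 comparisons gave 565 values with the direction and side of the threshold of the values reported, 37 that lost and 7 that gained a call, and 16 of opposite sign. These values include the main fit without the limit on the fold change, which could not lose a call. Under IgG, Slc7a11 was called in each refit. Under IgG, 5 of the 7 genes were called. The genotype counts given here include Cth wherever it was tested, although it was chosen by its genotype difference. The count was 3 with RLE or upper-quartile scaling or with no filter, and 2 with at least 10 counts in every sample (which drops Cth), with only the groups compared or with the leukocyte score. Leaving out 1 sample gave 3 to 5. Under anti-PD1 4 were called, 2 with at least 10 counts in every sample, 1 with the leukocyte score, and 1 to 4 without 1 sample, the 1 being Cth without WT anti-PD1 replicate 3 or A159V anti-PD1 replicate 3. For anti-PD1 in WT, 0 were called by edgeR, 2 by DESeq2 and 0 to 1 without 1 sample. The cause of these changes was not tested, except that fewer genes or samples enter some fits. Under anti-PD1 the leukocyte score did not overlap between genotypes, so the fit with the score cannot fully tell it apart from genotype.

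Of the 76 further pathway genes, 28 were called under IgG, 10 with only the groups compared. Under anti-PD1 26 were called, 4 with the leukocyte score and 17 to 22 without 1 sample. For anti-PD1 in WT, 0 were called, 2 with no filter, 6 by DESeq2, 1 by voom and 0 to 19 without 1 sample, the 19 without WT IgG replicate 4. For the interaction 0 were called, and 0 to 2 without 1 sample. Apart from the scalings, the shares of all genes called in these refits are not given. The refit counts therefore do not set the pathway genes apart from other genes. Over all genes, higher and lower calls under IgG were 2231 and 1779, 1680 and 2052 with RLE, and 1337 and 2313 with upper-quartile scaling. Under anti-PD1 they were 1613 and 1462, 1123 and 1672, and 931 and 1788.

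The replicate block is a pairing by numbers that the check did not bear out. With it, anti-PD1 in WT gave 2 of the 7 genes (Gclc and Slc7a11) and 29 pathway genes. The interaction gave 1 (Gclc) and 9. The share of all genes called with the block is not given, so these counts do not set the genes apart. With the block, Gss in A159V turned to 0.020. Other changes of sign were in values near 0. With the leukocyte score the genotype values under anti-PD1 turned to 0.077 for Mat2a and 0.14 for Gclc. Leaving out 1 sample, the genotype values under anti-PD1 ranged from -0.086 to 0.016 for Mat2a and from -0.13 to 0.071 for Gclc. The treatment values in WT ranged from -0.048 to 0.016 for Mat2a and from -0.19 to 0.0014 for Gclm. Those in A159V ranged from -0.13 to 0.17 for Cth, from -0.034 to 0.059 for Gclc, from -0.11 to 0.0086 for Gclm and from -0.11 to 0.019 for Gss. The interaction ranged from -0.0062 to 0.20 for Ahcy and from -0.074 to 0.13 for Gclm. Cth had 6 to 14 counts per WT sample and Cbs 0 to 6 counts per sample. The 27 list genes described were called 47 times over the 2 genotype comparisons, 14 of them in every refit and 33 lost in at least 1.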
